A study of Mus musculus with 15 samples.

Results

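The genes described here are the transcriptional coactivators Yap1 and Wwtr1 (the gene of TAZ), the 4 TEAD transcription factors Tead1, Tead2, Tead3 and Tead4, the feedback regulators Lats2, Amotl1 and Amotl2, and the target gene Ankrd1, in fibroblasts sorted from mouse lungs. Members were chosen by symbol, as the array probe sets whose only gene symbol is one of these names. This gave 10 genes read by 23 probe sets, of 18193 genes and 45036 probe sets in all. Each gene is described by its brightest probe set, the one with the highest mean over the 15 arrays, and the other probe sets are given where they differ.

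The series compared fibroblasts from lungs with metastases of human breast cancer cells and from healthy lungs, with 3 arrays in each of 5 groups. The hosts were NSG mice, an immunodeficient strain without mature lymphocytes, and the methods of the study describe females 6 to 8 weeks of age. Cancer cells were given through the tail vein. They were MDA-MB-231 cells (MDA), a human breast cancer line, or MDA-LM2 cells, a subline of it that forms lung metastases readily. Lungs were taken at week 1 (micrometastases: the MDA-LM2 micro and MDA micro groups) or week 3 (macrometastases: the MDA-LM2 macro and MDA macro groups), and lungs of age-matched mice without cancer cells formed the healthy group. At each week the study picked mice by bioluminescence so that metastatic load was comparable between MDA and MDA-LM2. The comparisons of the lines below are therefore between mice chosen for similar load. A replicate was made from 1 to 3 mice, and the p-values below therefore measure the spread among mice or small pools. The hosts thus lacked the lymphocytes of an intact animal. Cells were gated as positive for CD140a or CD140b (PDGFRA and PDGFRB) and negative for CD45, CD11b, CD31 and EPCAM.

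The Hippo pathway is a kinase cascade that restrains YAP and TAZ. The kinases MST1/2 activate LATS1/2, which phosphorylate YAP and TAZ, and the phosphorylated proteins are held in the cytoplasm or degraded. When the cascade is off, for example in spread cells on a stiff matrix, YAP and TAZ enter the nucleus and bind TEAD factors at target genes. In fibroblasts the pathway is known for its part in mechanosensing, contractility and fibrosis. Some targets feed back on the pathway: LATS2 is a kinase of the cascade, and the angiomotin family proteins, AMOTL1 and AMOTL2 among them, bind YAP and TAZ and can hold them outside the nucleus. The arrays measured transcripts, so phosphorylation and nuclear entry were not analysed here.

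TEAD factors bind a short site that holds GGAATG or, on the other strand, CATTCC. In MDA-LM2 micro against healthy fibroblasts Ankrd1 and Amotl2 had the largest differences of the 10 genes, so the 250 bases before their RefSeq transcription starts are shown here, 5′ to 3′ on the gene's strand, with these motifs in capitals. The Ankrd1 promoter is chr19:36119845-36120094 on the minus strand and the Amotl2 promoter is chr9:102717554-102717803 on the plus strand (GRCm38.p6).
Ankrd1: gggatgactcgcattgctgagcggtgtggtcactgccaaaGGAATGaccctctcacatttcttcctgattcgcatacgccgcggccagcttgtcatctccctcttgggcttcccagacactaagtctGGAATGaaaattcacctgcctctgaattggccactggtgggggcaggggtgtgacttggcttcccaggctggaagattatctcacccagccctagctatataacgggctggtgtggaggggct
Amotl2: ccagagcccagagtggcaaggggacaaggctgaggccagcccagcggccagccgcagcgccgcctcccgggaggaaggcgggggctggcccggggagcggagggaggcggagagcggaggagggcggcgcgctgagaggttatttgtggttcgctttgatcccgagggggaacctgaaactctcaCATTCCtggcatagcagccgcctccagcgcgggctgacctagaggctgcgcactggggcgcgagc

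The Ankrd1 promoter held 2 matches, at positions -210 and -123 from the start, and the Amotl2 promoter held 1, at -65. Promoters of 8 of the 10 genes, with 12 annotated starts, were matched (Tead1 and Tead4 were not). Within 250 bases before and 50 after the start, 8 of these 12 promoters, of 6 genes, held the motif on either strand, against 14.7% of 32851 mouse promoters of the same length. In the 250 bases before the start the share over all promoters was 12.6%. Several of the 12 starts belong to 1 gene and overlap, so they are not separate observations. A match is a description of the letters, and binding was not measured.

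The sorted cells carried the markers of their gate. Pdgfra lay between 3317 and 6427 and Pdgfrb between 3262 and 5565 on the 15 arrays (RMA intensity, linear scale). Their levels moved with stage. Pdgfra was lower in MDA-LM2 macro (3317 to 3980) and MDA macro (3467 to 3599.5) than in healthy fibroblasts (5072 to 5768). Pdgfrb was higher in MDA-LM2 macro (4427 to 4996) and MDA macro (5285 to 5565) than in healthy fibroblasts (3372.5 to 3984). Epcam lay between 88.3 and 105 and Ptprc between 76.5 and 94.9 on the 15 arrays. Other genes of the excluded cell types moved, in both directions. Krt18, a keratin gene, read 1415 to 3828 in MDA-LM2 macro and 614 to 1052 in MDA macro, against 65.4 to 94.1 in healthy fibroblasts. Kdr, an endothelial receptor gene, read 1871 to 2183 in MDA-LM2 macro and 735 to 979 in MDA macro, against 91.9 to 107 in healthy fibroblasts. Tek, another endothelial marker, fell to 163 to 246 and 147 to 376, against 847 to 1406. At an adjusted p under 0.05 (limma), 2 of 8 endothelial markers were higher and 2 lower in MDA-LM2 macro than in healthy fibroblasts. In MDA macro 1 was higher and 2 lower. Of 8 epithelial markers 2 were higher and 2 lower in MDA-LM2 macro, and 2 higher and 0 lower in MDA macro. Of 10 leukocyte markers 2 were higher in MDA-LM2 macro and 3 in MDA macro, with 0 lower in either group. All 6 mesothelial markers were higher in MDA-LM2 macro and 3 in MDA macro, again with 0 lower. Among 8 fibroblast markers 0 were higher and 4 lower in MDA-LM2 macro, and 1 was higher and 3 lower in MDA macro.

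Summed intensities of marker lists also moved between groups. The sum of 8 fibroblast genes was 67973 to 71043 in MDA-LM2 macro and 71021 to 71803 in MDA macro, against 77317 to 78925 in healthy fibroblasts. That of 8 epithelial genes was 3278 to 6389 in MDA-LM2 macro and 2441 to 2871 in MDA macro, against 1331 to 3182 in healthy fibroblasts. In MDA-LM2 macro Krt8 alone read 921 to 1659 and Krt18 1415 to 3828. Ager went the other way (289 to 300.4, against 369 to 439 in healthy fibroblasts), and 2 of the 8 genes were called higher and 2 lower. In the micro groups the epithelial sum varied widely, from 1173 to 4447 in MDA-LM2 micro and from 1497 to 5814 in MDA micro. Scgb1a1, 1 of the 8 genes, alone read 136 to 3212 and 192 to 4455 there. The sum of 8 endothelial genes was 2936 to 3173 in MDA-LM2 macro and 1720.0 to 2112 in MDA macro, against 1809 to 2577 in healthy fibroblasts. Kdr alone made up 1871 to 2183 in MDA-LM2 macro, where 2 of the 8 genes were called higher and 2 lower than in healthy fibroblasts. The sum of 9 proliferation genes was 6835 to 8216 in MDA-LM2 macro and 8026 to 8787 in MDA macro, against 1228 to 1449 in healthy fibroblasts. The sum of 6 mesothelial genes was 3617 to 4277 in MDA-LM2 macro and 1451 to 2589 in MDA macro, against 785 to 898 in healthy fibroblasts, and that of 10 leukocyte genes 2120 to 3821 and 3001 to 3268, against 1454 to 1745. The sum of 8 smooth muscle genes stood apart in MDA-LM2 micro (46124 to 47843, against 15388 to 21644 in healthy fibroblasts). In such sorted bulk samples, fewer cells of a type and less RNA per cell cannot be told apart, and the part of these markers in the results below was not tested. The log2 difference between the 3′ and 5′ Gapdh probe sets, a sign of RNA length, was 1.01 to 1.05 in MDA-LM2 macro and 1.03 to 1.43 in MDA macro, 1.18 to 1.24 in MDA-LM2 micro and 1.37 to 1.44 in MDA micro, and 1.16 to 1.70 in healthy fibroblasts. The same difference for Actb was -0.12 to -0.10 in MDA-LM2 macro and -0.16 to -0.02 in MDA macro. For Actb it was -0.09 to -0.04 in MDA-LM2 micro, -0.12 to -0.06 in MDA micro and -0.21 to -0.11 in healthy fibroblasts.

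**Figure D1:**
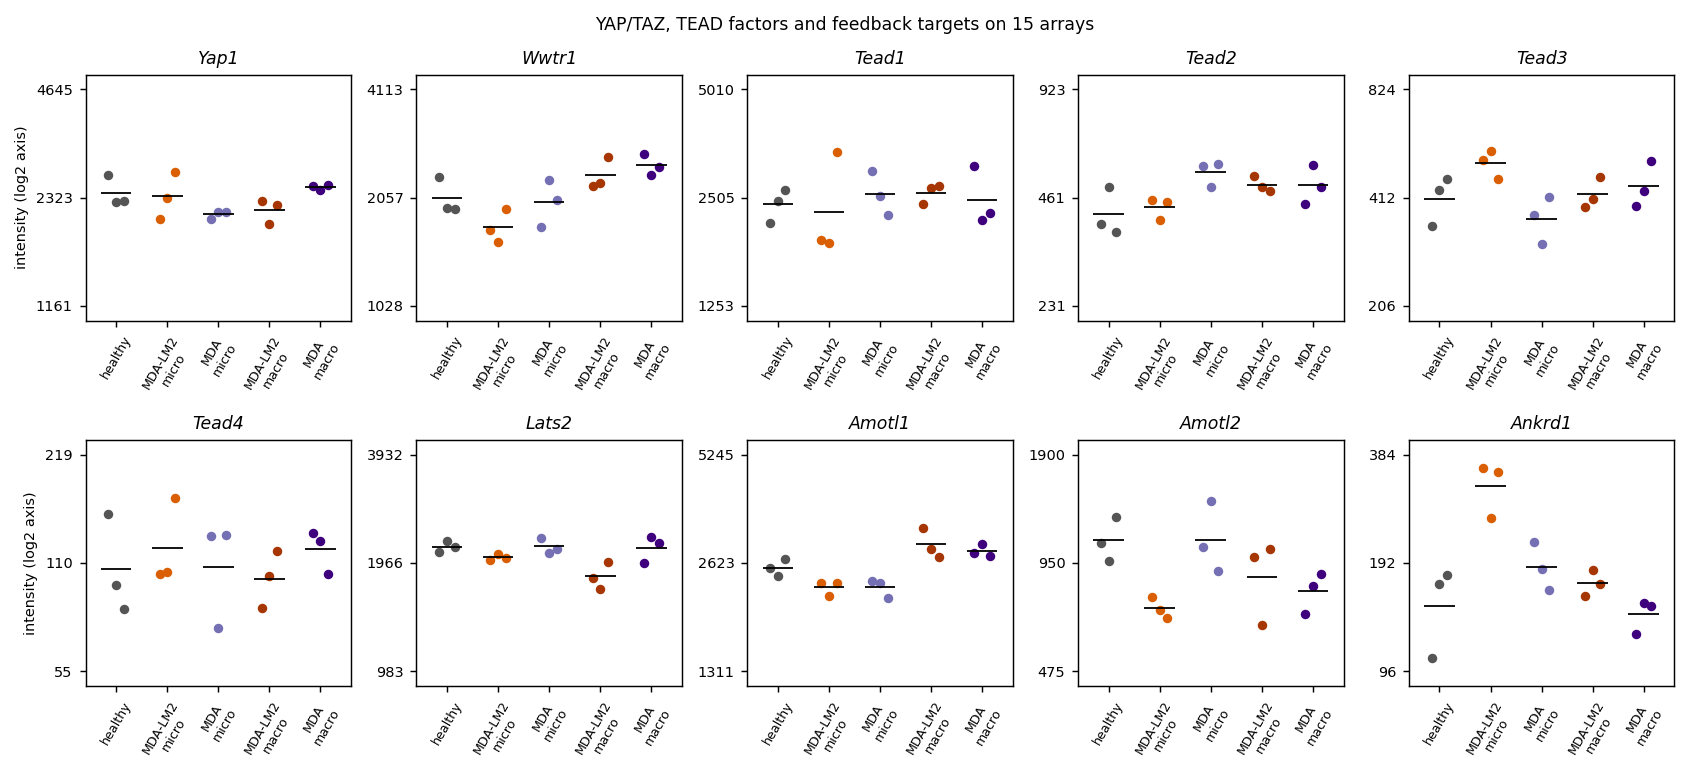
Intensity of the 10 genes (y axis, log2 scale, each panel spanning the same fold range) on each of the 15 arrays by group (x axis), with the geometric group mean as a bar. Ankrd1 on the 3 MDA-LM2 micro arrays (256 to 352) lies above the 12 other arrays, whereas Tead1 and Tead4 overlap in each comparison of 2 groups.

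In macrometastatic lungs none of the 10 genes was called against healthy fibroblasts at an adjusted p under 0.05 (limma, adjusted over 18193 genes). In MDA-LM2 macro 0 of 10 genes were called, where 22.6% of all genes were. An unadjusted p under 0.05 was seen for 1 gene, Lats2, against 6704 of all 18193 genes. In MDA macro 0 of 10 were called, against 15.2% of all genes. The 1 gene with an unadjusted p under 0.05 was Amotl2, against 5612 of all 18193 genes. The groups did not overlap for 2 of the 10 genes in MDA-LM2 macro (Lats2 and Amotl1) and for 3 in MDA macro (Wwtr1, Amotl1 and Amotl2), where 43.4% and 37.7% of all genes did not overlap. The median log2 fold change of the 10 genes against healthy was 0.07 in MDA-LM2 macro, where that of all genes was 0.08, and 0.09 in MDA macro, where that of all genes was 0.05.

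In micrometastatic lungs the same held, on a lower background. In MDA-LM2 micro 0 of 10 genes were called against healthy fibroblasts, with 0.583% of all genes called. Ankrd1 and Amotl2, 2 of the 10, had an unadjusted p under 0.05. In MDA micro 0 of 10 genes were called, and 0% of all genes were, although 1542 genes had an unadjusted p under 0.05, among them 1 of the 10, Tead2. The groups did not overlap for 5 of the 10 genes in MDA-LM2 micro (Tead3, Lats2, Amotl1, Amotl2 and Ankrd1), against 18.5% of all genes, and for 3 in MDA micro (Yap1, Tead2 and Amotl1), against 14.3%. Some gaps were very narrow. The nearest arrays of the metastasis and healthy groups read 464.6 and 463.2 for Tead3 and 2088 and 2103 for Lats2 in MDA-LM2 micro. For Tead2 in MDA micro they read 495.4 and 494.7. The 4 comparisons with healthy fibroblasts share the same 3 healthy arrays.

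**Figure D2:**
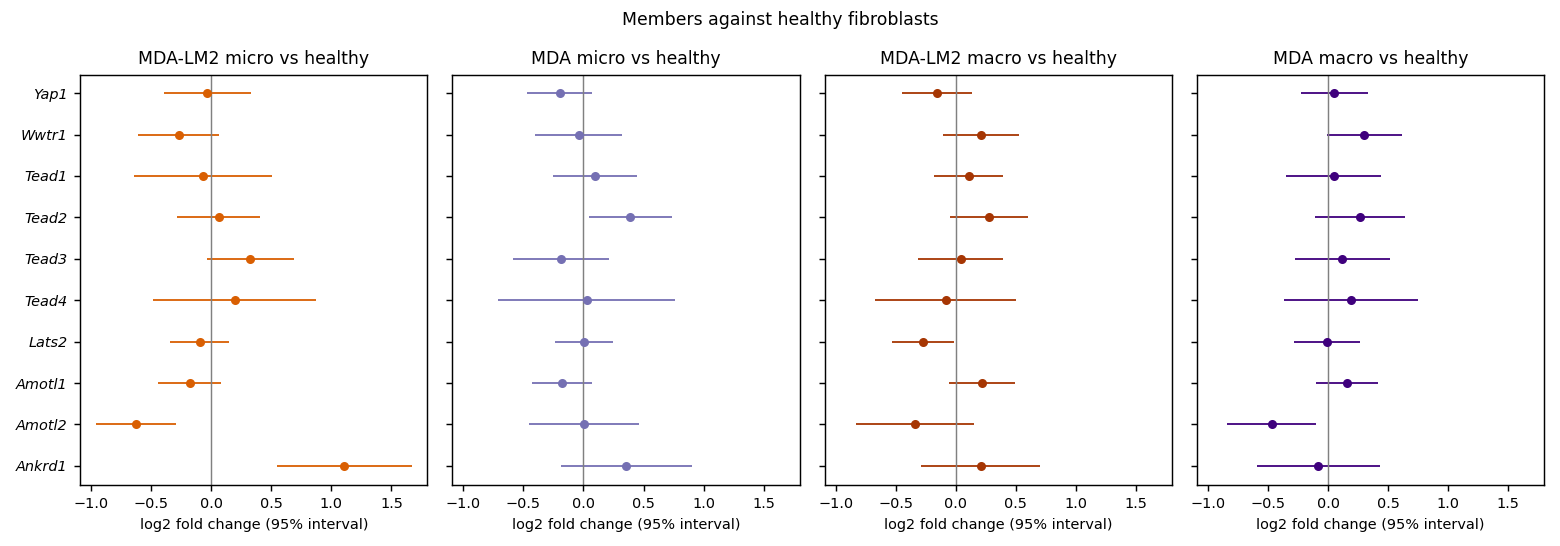
Log2 fold change over healthy fibroblasts (x axis, point) with its 95% interval from limma (bar) for the 10 genes (y axis) in each of the 4 metastasis groups. In MDA-LM2 micro, the interval lies above 0 for Ankrd1 (0.55 to 1.67) and below 0 for Amotl2 (-0.96 to -0.29), and no gene passed the adjusted threshold in any panel.

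Between the cell lines, MDA-LM2 micro differed from MDA micro in 0 of 10 genes, with 0.412% of all genes called, and MDA-LM2 macro from MDA macro in 0 of 10, with 0.0110% of all genes called. At an unadjusted p under 0.05 stood 4 of the 10 genes at week 1 (Tead2, Tead3, Amotl2 and Ankrd1) and 0 at week 3. The groups did not overlap for 5 genes at week 1 (the same 4 and Lats2), against 18.2% of all genes, and for 2 at week 3 (Yap1 and Ankrd1), against 16.1%. For Lats2 at week 1 the gap was narrow, with nearest arrays of 2088 in MDA-LM2 micro and 2098 in MDA micro.

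Between stages some of the genes were called, at about the share over all genes or below it. Macrometastatic over micrometastatic fibroblasts of both lines, fitted with a term for the line on 6 arrays a stage, gave 3 called genes of 10, where 31.1% of all genes were called: Wwtr1 and Amotl1 rose and Ankrd1 fell. Within the lines, 1 of 10 genes was called in MDA-LM2 macro against MDA-LM2 micro (Ankrd1, lower), with 15.6% of all genes called, and 0 of 10 in MDA macro against MDA micro, with 18.4% of all genes called. In the MDA line 5 genes had an unadjusted p under 0.05 (Yap1, Wwtr1, Amotl1, Amotl2 and Ankrd1), and in the MDA-LM2 line 3 (Wwtr1, Amotl1 and Ankrd1). The groups did not overlap for 5 genes in the MDA-LM2 line (Wwtr1, Tead2, Lats2, Amotl1 and Ankrd1) and for 5 in the MDA line (Yap1, Wwtr1, Amotl1, Amotl2 and Ankrd1), against 36.3% and 39.2% of all genes. The stage effect differed between lines (the interaction) in 0 of 10 genes, with 0.566% of all genes called and 3 of the 10 at an unadjusted p under 0.05 (Yap1, Tead3 and Amotl2).

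Ankrd1, an ankyrin repeat protein of muscle and a widely used YAP/TAZ target gene, varied most between groups: its group means spanned 1.19 on the log2 scale. Intensities were 105, 167 and 178 in healthy fibroblasts, 352, 256 and 345 in MDA-LM2 micro, 219, 184 and 162 in MDA micro, 155, 183 and 168 in MDA-LM2 macro, and 122, 149 and 145 in MDA macro. The 3 MDA-LM2 micro arrays were the highest of the 15, and the other 4 groups, ordered by mean, each overlapped with their neighbour. In those 4 groups the gene was dim: its mean log2 level was 7.11 to 7.55, near the median of all probe sets on an array (7.44 to 7.54).

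Against healthy fibroblasts, Ankrd1 in MDA-LM2 micro differed by a log2 fold change of 1.11 ± 0.24 (SE, n = 3 arrays a group, 2.15-fold), which missed the threshold (adjusted p = 0.132) in the fit of these 6 arrays. It passed when all 15 arrays shared an estimate of the spread (adjusted p = 0.00934). Against MDA micro the difference was 0.75 ± 0.18 (adjusted p = 0.176). The second probe set, 1420992_at, read 256, 229 and 257 in MDA-LM2 micro, against 118, 121 and 163 in healthy fibroblasts, and its log2 fold change was 0.90 ± 0.16 (adjusted p = 0.112 over all probe sets).

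Ankrd1 was lower at week 3. In MDA-LM2 macro against MDA-LM2 micro the log2 fold change was -0.90 ± 0.16 (adjusted p = 0.00949), with 1420992_at at -1.26 ± 0.13 (adjusted p = 0.00153). In MDA macro against MDA micro it was -0.44 ± 0.15 (adjusted p = 0.0922). Over both lines it was -0.67 ± 0.13 (adjusted p = 0.00159). The difference between the 2 lines in the stage effect was -0.46 ± 0.22 (adjusted p = 0.469) on the main probe set and -0.99 ± 0.19 (adjusted p = 0.0584) on 1420992_at, so a line-specific fall did not pass the test.

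The summed level of smooth muscle genes was highest on the same 3 arrays, and its part in the Ankrd1 difference was not tested. In MDA-LM2 micro against healthy fibroblasts 8 of 8 smooth muscle markers were called higher (median log2 fold change 1.61), and in MDA-LM2 macro against MDA-LM2 micro 6 of 8 were called lower. The smooth muscle myosin gene Myh11 read 9551 to 10332 in MDA-LM2 micro, against 2671 to 4911 in healthy fibroblasts. Acta2, the gene of smooth muscle actin, read 12197 to 12317 in MDA-LM2 micro, against 5162 to 7222 in healthy fibroblasts. The sum of 6 pericyte markers was 15214 to 19082 in MDA-LM2 micro, against 12707 to 14798 in healthy fibroblasts, but 0 of the 6 were called. Rgs5 rose (2459 to 4055, against 1362 to 1655), whereas Abcc9 did not (3684 to 4078, against 3951 to 4821). The genes whose log2 levels followed Ankrd1 most closely over the 15 arrays were Msrb1 (Pearson r = 0.91), which encodes a methionine sulfoxide reductase, and Actg2 (r = 0.90), the gene of the enteric smooth muscle actin. The 15 arrays fall into 5 groups and are not independent points, so this likeness is a description.

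**Figure D3:**
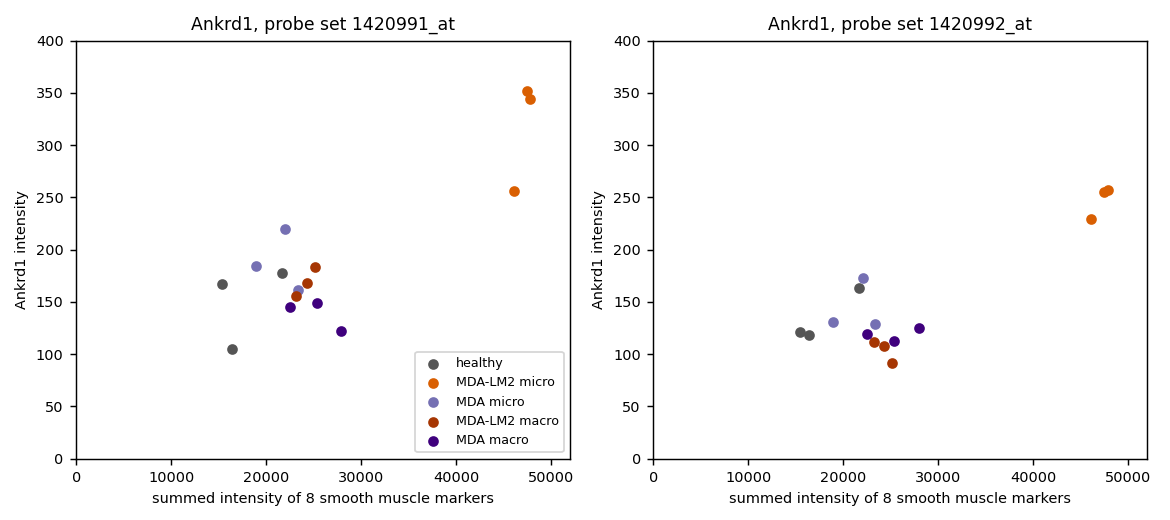
Ankrd1 intensity (y axis) against the summed intensity of 8 smooth muscle markers (x axis), 1 point an array, colours for the 5 groups, with 1 panel for each Ankrd1 probe set. The 3 MDA-LM2 micro arrays lie apart, with sums of 46124 to 47843, and the 12 other arrays lie between 15388 and 27939.

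Wwtr1 encodes TAZ, the paralogue of YAP. On its brightest probe set, 1417818_at, intensities were 2351, 1926 and 1916 in healthy fibroblasts, 1669, 1551 and 1916 in MDA-LM2 micro, 1709, 2304 and 2030.0 in MDA micro, 2222, 2259.9 and 2661 in MDA-LM2 macro, and 2727, 2374 and 2505 in MDA macro. The macro arrays were the higher ones in both lines. Over both lines Wwtr1 rose by a log2 fold change of 0.41 ± 0.10 (adjusted p = 0.00641). Within lines the difference was 0.48 ± 0.13 in MDA-LM2 macro against MDA-LM2 micro (adjusted p = 0.0540) and 0.34 ± 0.14 in MDA macro against MDA micro (adjusted p = 0.147). Against healthy fibroblasts it was 0.21 ± 0.13 in MDA-LM2 macro (adjusted p = 0.306) and 0.30 ± 0.13 in MDA macro (adjusted p = 0.173).

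The 3 Wwtr1 probe sets did not move alike at week 1. In MDA-LM2 micro against healthy, 1417818_at differed by -0.27 ± 0.14, whereas 1417817_a_at differed by 0.28 ± 0.13 and 1437155_a_at by 0.37 ± 0.13, with no probe set called. Probe set 1437155_a_at read 1200.5, 1057 and 1106 in MDA-LM2 micro, against 823, 987 and 792 in healthy fibroblasts, so its groups did not overlap. Over both lines these 2 probe sets gave stage differences of 0.12 ± 0.11 and 0.14 ± 0.10, which were not called. With the mean of the 3 probe sets, Wwtr1 rose between stages by 0.22 (adjusted p = 0.0467). The genes nearest to Wwtr1 over the 15 arrays were Ppp1r15a (r = 0.87), a regulatory subunit of a stress-induced phosphatase, and Sec16a (r = 0.87), which organises endoplasmic reticulum exit sites.

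Yap1 differed little. Its group means spanned 0.25 on the log2 scale, and neighbouring groups in the order of means overlapped. Intensities were 2686, 2253 and 2273 in healthy fibroblasts, 2022, 2322 and 2745 in MDA-LM2 micro, 2025, 2114 and 2125 in MDA micro, 2275, 1965 and 2219.6 in MDA-LM2 macro, and 2495, 2439.7 and 2525 in MDA macro. The difference in MDA macro against MDA micro was 0.25 ± 0.10 (adjusted p = 0.140), and the second probe set, 1416487_a_at, gave 0.37 ± 0.14 (adjusted p = 0.108). In MDA-LM2 macro against MDA-LM2 micro it was -0.13 ± 0.15 (95% interval -0.47 to 0.21). The nearest genes were Postn (r = 0.80), which encodes the matrix protein periostin, and Spag9 (r = 0.78), which encodes a JNK scaffold.

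The TEAD factors give YAP and TAZ their contact with DNA. Tead1 was the brightest of them, although intensities of different probe sets cannot be ranked as expression. On 1423434_at it read between 1869.5 and 3357 over the 15 arrays, with a median of 2449, and its largest difference against healthy fibroblasts was 0.11 ± 0.12 in MDA-LM2 macro (adjusted p = 0.564). Its second probe set, 1429556_at, read 1608, 1542 and 1601 in MDA-LM2 macro, against 1201, 1201 and 896 in healthy fibroblasts. The log2 fold change there was 0.54 ± 0.14 (adjusted p = 0.0401 over all probe sets), and without any 1 of the 6 arrays the call was lost (highest adjusted p = 0.104). Over both lines the same probe set rose between stages by 0.39 ± 0.12 (adjusted p = 0.0262) and lost its call without MDA micro replicate 1 or MDA macro replicate 1 (highest adjusted p = 0.0593).

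Tead2 is known as a TEAD factor of embryonic and progenitor cells. Its single probe set read 389, 495 and 371 in healthy fibroblasts, 454, 399 and 448 in MDA-LM2 micro, 565, 495 and 573 in MDA micro, 531, 494 and 482 in MDA-LM2 macro, and 444, 568 and 493 in MDA macro. MDA micro lay highest by mean, with a difference from healthy fibroblasts of 0.39 ± 0.15 (adjusted p = 0.558). The 2 groups did not overlap, but only just: the lowest MDA micro array read 495.4 and the highest healthy array 494.7. Against MDA micro, MDA-LM2 micro differed by -0.33 ± 0.12 (adjusted p = 0.356).

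Tead3, a TEAD factor gene known from placenta, had the opposite order of the lines at week 1. It read 343, 432 and 463 in healthy fibroblasts, 523, 555 and 465 in MDA-LM2 micro, 369, 306 and 413 in MDA micro, 389, 407 and 470.5 in MDA-LM2 macro, and 391, 429.9 and 522 in MDA macro. MDA-LM2 micro lay above MDA micro without overlap, by 0.51 ± 0.15 (adjusted p = 0.257), and above healthy fibroblasts by 0.33 ± 0.15 (adjusted p = 0.464). The interaction of stage and line was -0.59 ± 0.21 (adjusted p = 0.290).

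Tead4 was dim, between 72.3 and 166 on 1426337_a_at, and was the 1 member below the 25th percentile of mean intensity over all genes. Its groups overlapped in each comparison of 2 groups, and its spread within groups (mean SD 0.36 on the log2 scale) was larger than the span of its group means (0.28). The nearest genes over the 15 arrays were Nagpa (r = 0.80) for Tead1, Cox6b1 (r = 0.83) for Tead2, Cep162 (r = 0.86) for Tead3 and Ccrl2 (r = 0.87) for Tead4.

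Lats2 encodes one of the 2 LATS kinases and is induced by YAP/TAZ, which closes a negative feedback loop. On its brightest probe set, 1439441_x_at, intensities were 2103, 2258 and 2176 in healthy fibroblasts, 1999.6, 2088 and 2027 in MDA-LM2 micro, 2314, 2098 and 2153 in MDA micro, 1787, 1666 and 1974 in MDA-LM2 macro, and 1967, 2319 and 2236 in MDA macro. The MDA-LM2 macro arrays lay below those of healthy fibroblasts and overlapped with MDA macro, where replicate 1 was low. They differed from healthy fibroblasts by -0.27 ± 0.11 (adjusted p = 0.122) and from MDA macro by -0.27 ± 0.12 (adjusted p = 0.514).

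Lats2 had 6 probe sets, and they disagreed in size. In MDA-LM2 macro against healthy, 1437101_at fell by 0.69 on the log2 scale (SE 0.17, adjusted p = 0.0314), while 1425420_s_at and 1426156_at gave -0.84 ± 0.25 and -0.87 ± 0.26 (adjusted p = 0.0586 and 0.0552), and 1419679_at gave 0.08 ± 0.13. Probe set 1437101_at read 1211, 906 and 1339.7 in MDA-LM2 macro, against 1784, 2050.1 and 1696 in healthy fibroblasts. In MDA macro, where it read 859, 1926 and 2211, it overlapped with healthy fibroblasts (log2 fold change -0.25 ± 0.34).

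In MDA macro the dimmer probe sets were the lower ones. Probe set 1426156_at read 153, 195 and 202 in MDA macro, against 353, 240.5 and 323 in healthy fibroblasts, and fell by 0.73 on the log2 scale (SE 0.19, adjusted p = 0.0459). Probe set 1425420_s_at gave -0.81 ± 0.22 (adjusted p = 0.0572). Against MDA micro, MDA macro was lower by -0.92 ± 0.16 on 1425420_s_at (adjusted p = 0.0105) and by -0.86 ± 0.21 on 1426156_at (adjusted p = 0.0320).

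Leaving out single arrays separated the 2 dim probe sets of Lats2. The fall of 1425420_s_at between stages held without any 1 array, in the MDA line (6 of 6 refits) and over both lines (-0.69 ± 0.17, adjusted p = 0.00827, 12 of 12 refits). The calls of 1426156_at and 1437101_at within 2 groups held in 1 of 6 refits each, and that of 1426156_at over both lines (-0.62 ± 0.20, adjusted p = 0.0361) in 4 of 12. By the array maker's naming, _s_at marks probes shared by transcripts of several genes, and _x_at marks probe sets with some probes close to other sequence, so neither the main probe set nor 1425420_s_at reads Lats2 alone with certainty. With the mean of its 6 probe sets Lats2 fell between stages over both lines by 0.30 on the log2 scale (adjusted p = 0.0110). Not all probe sets fell. The main one gave -0.09 ± 0.08 (adjusted p = 0.389). The mean log2 level of 1419679_at was 9.44 in MDA-LM2 macro and 9.58 in MDA macro, against 9.27 in MDA-LM2 micro and 9.39 in MDA micro. For 1419678_at these means were 9.51 and 9.56, against 9.49 and 9.59. The genes nearest to the main probe set over the 15 arrays were Adgrl3 (r = 0.88), an adhesion receptor gene, and Runx1t1 (r = 0.86), a transcriptional corepressor gene.

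**Figure D4:**
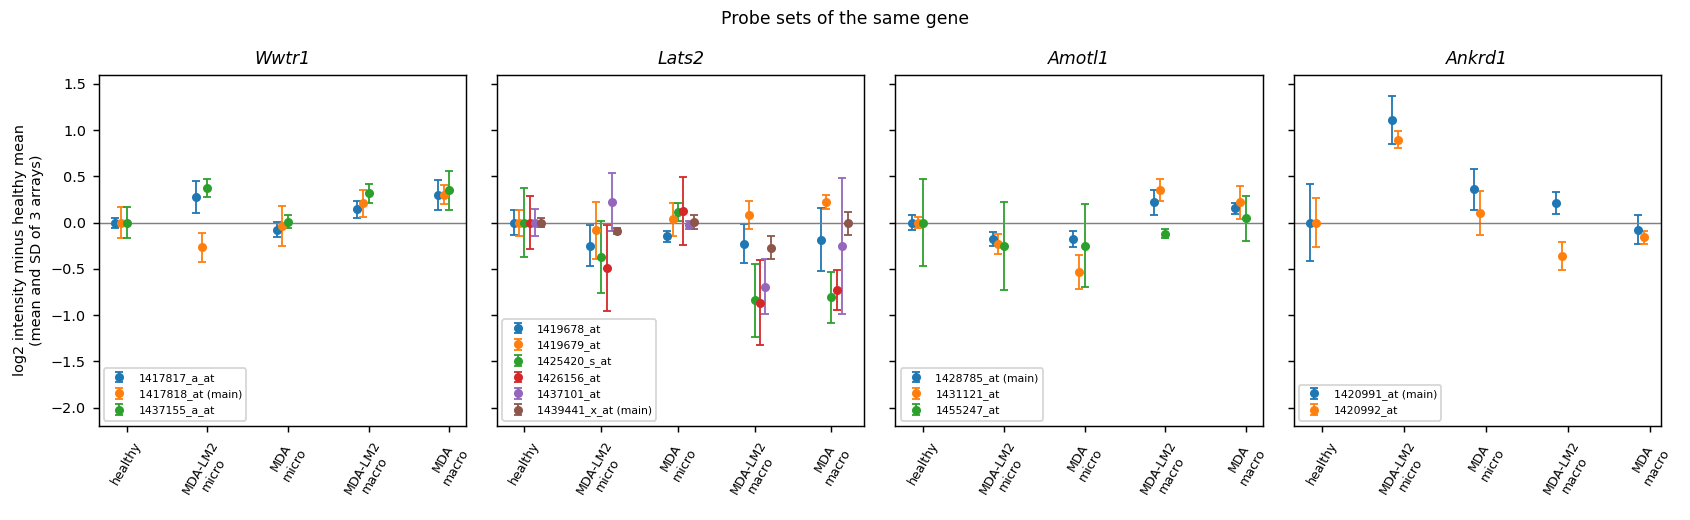
Log2 intensity minus the healthy mean (y axis, mean and SD of 3 arrays) for each probe set of Wwtr1, Lats2, Amotl1 and Ankrd1, by group (x axis). Both Ankrd1 probe sets are highest in MDA-LM2 micro, the 3 Wwtr1 probe sets part in that group, and the 6 Lats2 probe sets spread widely in the macro groups.

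Amotl1 encodes a junction protein of the angiomotin family. On its brightest probe set, 1428785_at, intensities were 2534, 2407 and 2682 in healthy fibroblasts, 2312, 2117 and 2309.8 in MDA-LM2 micro, 2341, 2301 and 2096 in MDA micro, 3281, 2876 and 2727 in MDA-LM2 macro, and 2788, 2964 and 2739 in MDA macro. The groups formed 3 tiers without overlap: macro above healthy, and healthy above micro. Over both lines Amotl1 rose between stages by 0.36 ± 0.07 (adjusted p = 0.00241). Within lines the difference was 0.40 ± 0.12 in MDA-LM2 macro against MDA-LM2 micro (adjusted p = 0.0668) and 0.33 ± 0.11 in MDA macro against MDA micro (adjusted p = 0.0794). Against healthy fibroblasts it was 0.22 ± 0.12 in MDA-LM2 macro (adjusted p = 0.221) and 0.16 ± 0.11 in MDA macro (adjusted p = 0.381).

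The probe set 1431121_at of Amotl1 gave the same order with a larger difference. It read 841, 963 and 834 in MDA-LM2 macro, against 565, 558 and 639.9 in MDA-LM2 micro, and 782, 716 and 917 in MDA macro, against 429.9, 456 and 547 in MDA micro. The stage difference over both lines was 0.67 ± 0.10 (adjusted p = 0.000249 over all probe sets), and it held in 12 of 12 refits without 1 array. Within lines it rose by 0.58 ± 0.12 in MDA-LM2 (adjusted p = 0.0220, 1 of 6 refits) and by 0.75 ± 0.15 in MDA (adjusted p = 0.0163, 4 of 6 refits, lost without MDA micro replicate 1 or 2). The probe set 1455247_at, with arrays from 712 to 1677, gave 0.21 ± 0.17 over both lines and was not called.

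The genes that followed Amotl1 most closely over the 15 arrays were Sh3bp1 (r = 0.93), a Rac GTPase-activating protein gene, and Dock5 (r = 0.93), a Rac exchange factor gene that also stands on the list of YAP/TAZ signature genes below. Proliferation markers also differed by stage: 9 of 9 were called higher in macro over micro over both lines, with sums of 6835 to 8787 in the 6 macro arrays and 1249 to 1995 in the 6 micro arrays.

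Amotl2, a second angiomotin family gene and direct YAP/TAZ target in cultured cells, had 1 probe set. It read 1082, 960.2 and 1271 in healthy fibroblasts, 765, 705 and 668 in MDA-LM2 micro, 1053, 1409.6 and 902 in MDA micro, 985, 640.0 and 1036 in MDA-LM2 macro, and 683, 822 and 884 in MDA macro. MDA-LM2 micro lay below healthy fibroblasts and below MDA micro without overlap. The differences were -0.63 ± 0.14 against healthy (adjusted p = 0.148) and -0.63 ± 0.18 against MDA micro (adjusted p = 0.246), so neither passed the threshold. In this group Ankrd1 and Amotl2, with the promoters shown above, stood at opposite ends of the 10 genes.

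At week 3 Amotl2 in MDA macro lay below healthy fibroblasts by -0.47 ± 0.16 (adjusted p = 0.0888) and below MDA micro by -0.48 ± 0.19 (adjusted p = 0.129). In MDA-LM2 macro replicate 2 read 640.0 and the other 2 arrays 985 and 1036, and the difference from MDA-LM2 micro was 0.29 ± 0.20 (adjusted p = 0.379). The interaction was 0.76 ± 0.29 (adjusted p = 0.332). The nearest genes were Usp1 (r = 0.87), a deubiquitinase gene, and Prpf4 (r = 0.85), a splicing factor gene.

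Calls on single probe sets, counted over the 23 of the 10 genes, gave 2 in MDA-LM2 macro against healthy, with 20.0% of all probe sets called, 1 in MDA macro against healthy, with 13.1% called, and 0 in MDA-LM2 micro against healthy, with 0.264% called. Between stages they gave 4 in the MDA-LM2 line (14.6% of all probe sets), 3 in the MDA line (17.0%) and 8 over both lines (30.6%). The shares of the 23 probe sets were thus close to these backgrounds or below them.

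The rest of the pathway was read through 3 lists. Of 22 other genes of the kinase module, which holds the Hippo kinases, their adaptors and the upstream cadherins, 3 rose and 1 fell in macro over micro over both lines, where 31.1% of all genes were called. Wwc1, which encodes the LATS activator KIBRA, rose by 0.88 ± 0.21 (adjusted p = 0.00723) on an _s_at probe set. With _s_at and _x_at probe sets left out this call held, but within the MDA-LM2 line the stage difference was 0.36 ± 0.17 (limma, adjusted p = 0.209). Fat1, an atypical cadherin gene, rose by 0.65 ± 0.12 (adjusted p = 0.00110), and Map4k4, a kinase gene that acts beside MST1/2, by 0.46 ± 0.13 (adjusted p = 0.0205). Fat4, the cadherin gene most like Drosophila fat, fell by 1.30 on the log2 scale (SE 0.18, adjusted p = 0.000151). The median log2 fold change of the 22 genes was 0.01, where that of all genes was 0.05.

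Fat4 read 297, 252 and 354 in MDA-LM2 macro, against 1063, 872 and 992 in MDA-LM2 micro, and 265, 413 and 471 in MDA macro, against 650.5, 693 and 739 in MDA micro. Healthy fibroblasts read 689.9, 883 and 1107. The macro arrays were the 6 lowest of the 15. Lats1, the second LATS kinase gene, and Nf2, the gene of the upstream regulator merlin, were called in none of the 10 comparisons.

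Of 17 other binding partners and junction regulators, 3 rose and 2 fell over both lines, again against 31.1% of all genes. Ptpn14, a phosphatase gene whose product binds YAP, rose by 0.78 ± 0.15 (adjusted p = 0.00165). Amot, the third angiomotin gene, rose by 0.61 ± 0.16 (adjusted p = 0.0120), and the polarity gene Crb1 by 0.59 ± 0.15 (adjusted p = 0.00979). Vgll3, whose product binds TEAD factors in place of YAP, fell by 0.58 on the log2 scale (SE 0.09, adjusted p = 0.000523), and the tight junction gene Tjp1 fell by 0.46 (SE 0.13, adjusted p = 0.0169). Vgll4, a TEAD-binding repressor gene, was not called in any comparison. The median log2 fold change was -0.06, where that of all genes was 0.05.

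Of 19 other YAP/TAZ signature genes, 8 rose and 4 fell over both lines, against 31.1% of all genes called, and the median log2 fold change was 0.18, where that of all genes was 0.05. Dock5 rose by 1.62 ± 0.14 (adjusted p = 4.27e-06), Nuak2, a kinase gene, by 0.95 ± 0.21 (adjusted p = 0.00409) and Ccdc80, a matrix protein gene, by 0.93 ± 0.10 (adjusted p = 1.53e-05). Dock5 read 759, 669 and 604 in MDA-LM2 macro, against 233, 147 and 174 in MDA-LM2 micro, and 497, 537 and 444 in MDA macro, against 192, 222 and 169 in MDA micro. Igfbp3, which encodes an IGF-binding protein, fell by 1.43 on the log2 scale (SE 0.20, adjusted p = 0.000156), and Foxf2, a mesenchymal transcription factor gene, fell by 0.91 (SE 0.15, adjusted p = 0.000552). F3, the tissue factor gene, fell by 0.48 (SE 0.14, adjusted p = 0.0231) and lost its call without MDA micro replicate 2, MDA-LM2 micro replicate 1, MDA macro replicate 1, or MDA-LM2 macro replicate 1 or 3 (highest adjusted p = 0.0539).

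The members called on this list are not of 1 kind. Dock5 acts on Rac, Ccdc80 on matrix and Igfbp3 on growth factor availability, and genes moved in both directions. Ccn1 and Ccn2, matricellular genes that are the most widely used YAP/TAZ targets beside Ankrd1, were bright and were called in none of the 10 comparisons. Ccn2 read 8815, 10016 and 8533 in MDA macro, against 7905, 7002 and 6530.1 in healthy fibroblasts, which did not overlap (0.35 ± 0.13, adjusted p = 0.113). Ccn1 read 7734, 5815 and 6368 in MDA-LM2 macro, against 5549, 6520.1 and 6606 in healthy fibroblasts (0.09 ± 0.14, 95% interval -0.25 to 0.43).

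**Figure D5:**
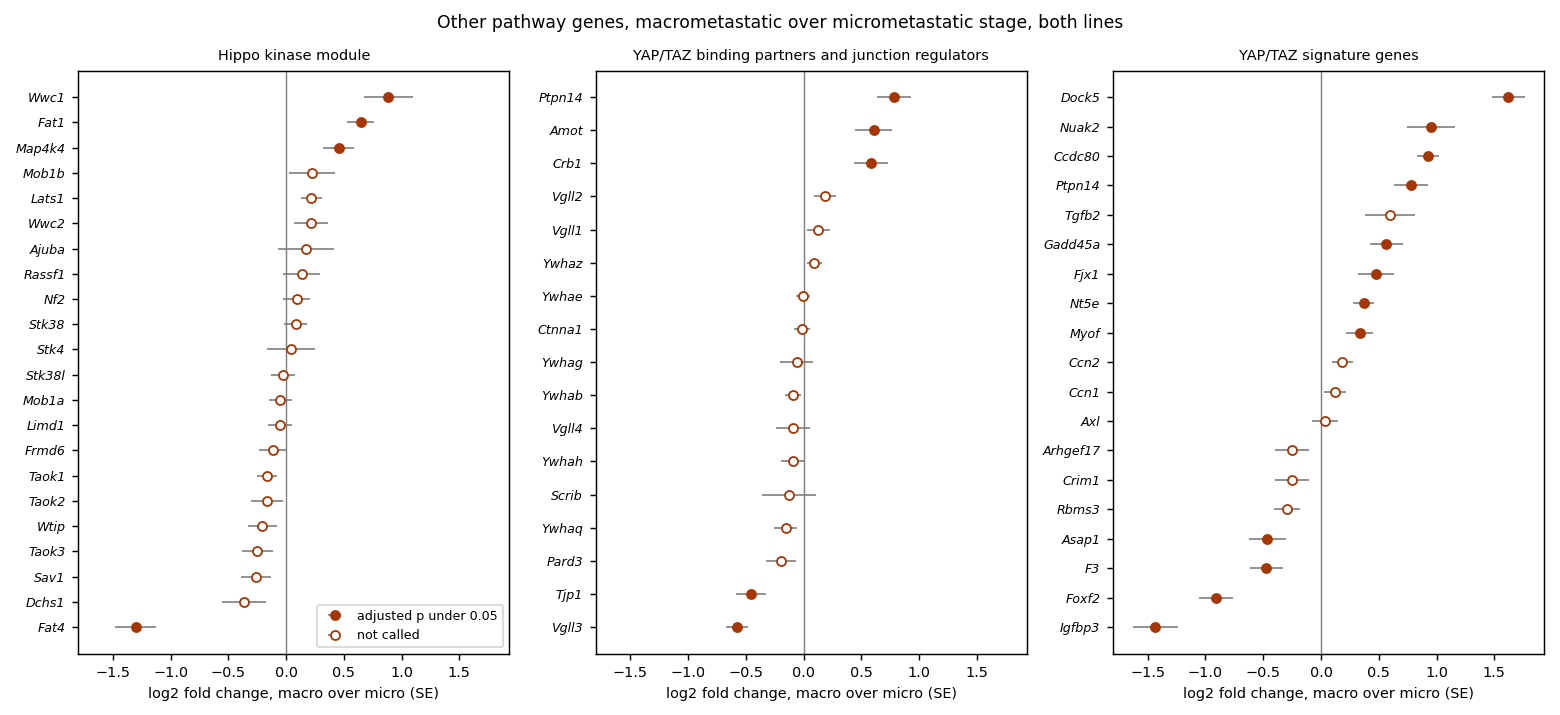
Log2 fold change of macro over micro fibroblasts over both lines (x axis, point with SE) for the genes of 3 lists (y axis), without the 10 genes of the report, with called genes filled. Dock5 (1.62) is the highest and Igfbp3 (-1.43) the lowest of the 3 panels, and Ccn1 and Ccn2 are open points near 0. Ptpn14 stands on 2 lists.

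Against healthy fibroblasts, the kinase module had 2 genes higher and 2 lower in MDA-LM2 macro and 1 higher and 3 lower in MDA macro, where 22.6% and 15.2% of all genes were called. The partners had 3 higher and 2 lower in MDA-LM2 macro and 1 higher and 0 lower in MDA macro, and the signature genes 5 higher and 4 lower in MDA-LM2 macro and 4 higher and 1 lower in MDA macro. Of the 15 called genes named by rule in MDA-LM2 macro, 6 kept their call without any 1 array: Dock5 (1.30 ± 0.13), Frmd6, the gene of an upstream FERM protein (-0.85 ± 0.12), Fat4 (-1.56 ± 0.20), Tjp1 (-0.65 ± 0.11), Vgll3 (-0.72 ± 0.14) and Igfbp3 (-1.55 ± 0.27). Of 9 in MDA macro, 3 did: Dock5 (0.84 ± 0.13), Dchs1, the gene of the FAT4 ligand (-1.29 ± 0.20), and Igfbp3 (-1.64 ± 0.29).

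At week 1 few genes were called, in the lists as over all genes. In MDA-LM2 micro against healthy, with 0.583% of all genes called, 1 gene of the lists was called, Stk38l, a kinase gene related to LATS (0.91 ± 0.12, adjusted p = 0.0327). It read 1722, 1719.5 and 1898 in MDA-LM2 micro, against 922, 896 and 1027 in healthy fibroblasts, and the call was lost without any 1 of the 6 arrays (highest adjusted p = 0.128 over the settings tried). Against MDA micro, with 0.412% of all genes called, MDA-LM2 micro was lower in Igfbp3 (-1.05 ± 0.15, adjusted p = 0.0485), a call likewise lost without any 1 of the 6 arrays (highest adjusted p = 0.181 over the settings tried). In MDA micro against healthy (0% of all genes called), in MDA-LM2 macro against MDA macro (0.0110%) and in the interaction (0.566%), 0 genes of the 3 lists were called by limma.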

How the data were processed

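RNA of sorted lung fibroblasts was preamplified (Ovation Pico WTA System V2) and hybridised to Affymetrix Mouse Genome 430 2.0 arrays. The authors normalized the raw arrays with RMA, and the submitters' processing notes name Chipster 3.8.0. Deposited were intensities of probe sets, from 31.0 to 27897. This range is a linear one, whereas RMA returns log2. They were converted to log2 with no further normalization. Precision is limited by how many arrays there are.

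Of 45100 probe sets, 64 were controls, and 34944 others had 1 gene symbol and 932 several in the platform annotation (9211 of the whole table had none). By gene identifier, 34740 single-symbol probe sets were found in RefSeq (GRCm38.p6), and 0 symbols changed. Some genes of the lists are not reported here. Columns of other samples left unused numbered 0.

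Each gene was represented by its probe set with the highest mean. Genes were tested with limma 3.58.1 in R 4.3.3 (lmFit and eBayes, two-sided), with Benjamini-Hochberg adjustment over 18193 genes or, where probe sets are named, over 45036 probe sets. Values are log2 fold changes ± SE. Groups of 2 were fitted on their 6 arrays, and the stage effect (line as covariate) and the interaction on 12. A difference was called at an adjusted p under 0.05. The scripts were tested on simulated data.

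The members and lists were chosen with earlier results of these data known. Named were the 10 members with each probe set, per comparison at most 3 higher and 3 lower called genes of each list, Ccn1, Ccn2, Lats1, Nf2 and Vgll4, and, among genes of at least median brightness, the 2 nearest to each member by Pearson r over 15 arrays. Groups without overlap were counted on the same values. Promoters were RefSeq's (GRCm38.p6). Alternatives were all 15 arrays in a fit, single arrays left out, a replicate block, quantile normalization, median centring, the mean of all probe sets, a filter at the 25th percentile of brightness, all probe sets tested and, added after seeing the data, no _s_at and _x_at probe sets.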

Additional observations from a re-analysis of the deposited data

Results flagged for a closer look

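Probe set 1421055_at, which the annotation assigns to both Xpo4 and Lats2, stood outside the comparisons because it names 2 genes. It read 856, 675 and 707 in MDA-LM2 micro, against 435, 512 and 617 in healthy fibroblasts, without overlap, and its log2 fold change was 0.52 ± 0.17 (adjusted p = 0.340 over all probe sets, limma). It was picked out as a signal above the healthy level in data that the report does not use. The Lats2 probe sets with 1 symbol gave -0.49 to 0.23 in the same comparison.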

How the results depend on the processing

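The 4 called values of the 10 genes (Wwtr1, Amotl1 and Ankrd1 between stages over both lines, and Ankrd1 in MDA-LM2 macro against MDA-LM2 micro) kept their direction and call in all settings tried, with adjusted p at most 0.0467. Of the 96 values not called, 8 were called under some setting, and 37 changed sign under some setting without a call. With all 15 arrays in the fit the counts of called genes were 1 in MDA-LM2 micro against healthy (Ankrd1), 3 in MDA-LM2 macro against MDA-LM2 micro (Wwtr1, Amotl1 and Ankrd1) and 1 in MDA macro against MDA micro (Amotl1). With the mean of all probe sets they were 2 in MDA-LM2 macro against healthy (Tead1 and Lats2), 1 in MDA macro against MDA micro (Amotl1) and 4 over both lines, where Lats2 was added (-0.30, adjusted p = 0.0110). With arrays centred on their median it was 3 in MDA-LM2 macro against MDA-LM2 micro (Wwtr1, Amotl1 and Ankrd1). Without _s_at and _x_at probe sets they were 1 in MDA-LM2 macro against healthy (Lats2) and 2 in MDA-LM2 macro against MDA-LM2 micro (Lats2 and Ankrd1). The cause was not tested. Centring moved the median of all genes from 0.08 to 0.11 in MDA-LM2 macro against healthy.

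Same-numbered replicates of 2 groups did not deviate together over all genes (correlations -0.07 to 0.07). No strong shared effect of the replicate number was thus seen, but with 3 arrays a group this check cannot exclude that the numbers pair samples. The replicate block left the counts of called members as they were, at 3 over both lines, 1 in MDA-LM2 macro against MDA-LM2 micro and 0 elsewhere, while the counts over all genes fell to 0 from 106 (MDA-LM2 micro against healthy), from 75 (MDA-LM2 micro against MDA micro) and from 2 (MDA-LM2 macro against MDA macro).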
